A study of Mus musculus with 6 samples.

Results

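The genes described here are 10 regulators of luminal and alveolar mammary epithelium: the transcription factors Elf5, Ehf, Elf3, Gata3, Foxa1, Stat5a and Stat5b, and the receptors for oestrogen (Esr1), progesterone (Pgr) and prolactin (Prlr). The cells were V720, a line of mouse breast cancer, grown in DMEM with fetal calf serum. They received vehicle or 1 µM PD0332991 for 24 h, in 3 biological replicates each, and each of the 6 RNA samples was hybridized to its own Affymetrix array. PD0332991, also known as palbociclib, blocks the cell cycle kinases CDK4 and CDK6. The members were all probe sets to which the array annotation gave exactly 1 gene symbol and that symbol was one of the 10. This took 19 of the 45037 probe sets that are not controls, and they covered 9 of the 10 genes. Prlr was not analysed here, because no probe set carried its symbol alone in the annotation used.

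Elf5, Ehf and Elf3 form the epithelial subgroup of the ETS family, whose members bind DNA through a conserved domain that reads a GGAA core. In the mammary gland Elf5 specifies the milk-secreting alveolar lineage, Gata3 and Foxa1 maintain luminal identity and open chromatin for the oestrogen receptor, and the progesterone receptor is a classical target of that receptor. Prolactin acts through its receptor and the kinase JAK2 to phosphorylate the near-identical factors STAT5A and STAT5B, which enter the nucleus and switch on milk protein and survival genes.

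Most of the luminal factors with a signal above the table's median were lower after PD0332991, by modest amounts. Elf3 was only a little above that median, at percentile 55.45. Gata3 did not pass the test, and the 2 steroid receptors gave signals in the lower part of the array's range. Elf5, Ehf, Elf3, Foxa1 and Stat5b fell 1.2-fold to 1.32-fold on their brightest probe sets, and none of the genes rose. That makes 5 of 9 measured genes lower (limma, adjusted p from 0.00609 to 0.039), where 9.05% of all 18193 genes were called lower and 7.8% higher in the same test. The vehicle and PD0332991 arrays did not overlap for 6 of the 9 genes, against 38.9% of all genes. Among the genes whose brightest probe set lay above the median signal of the table, 5 of 7 were called lower, against 14.3% of all such genes. The median log2 fold change over the 9 genes was -0.26, beside 0.00 over all genes. At an unadjusted p under 0.05 the count of higher genes was also 0. In bulk RNA, fewer cells that express a gene and less RNA per cell cannot be told apart.

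Leaving out 1 array moved the number of calls. Of the 5 genes, 4 were called without vehicle replicate 1, 3 without vehicle replicate 2, vehicle replicate 3, PD0332991 replicate 1 or PD0332991 replicate 3, and 2 without PD0332991 replicate 2, while 4.47% to 4.97% of all probe sets were then called lower, beside 8.19% with all 6 arrays. Elf5 and Ehf were called in every one of those 6 fits. All 5 log2 fold changes stayed negative in them.

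**Figure D1:**
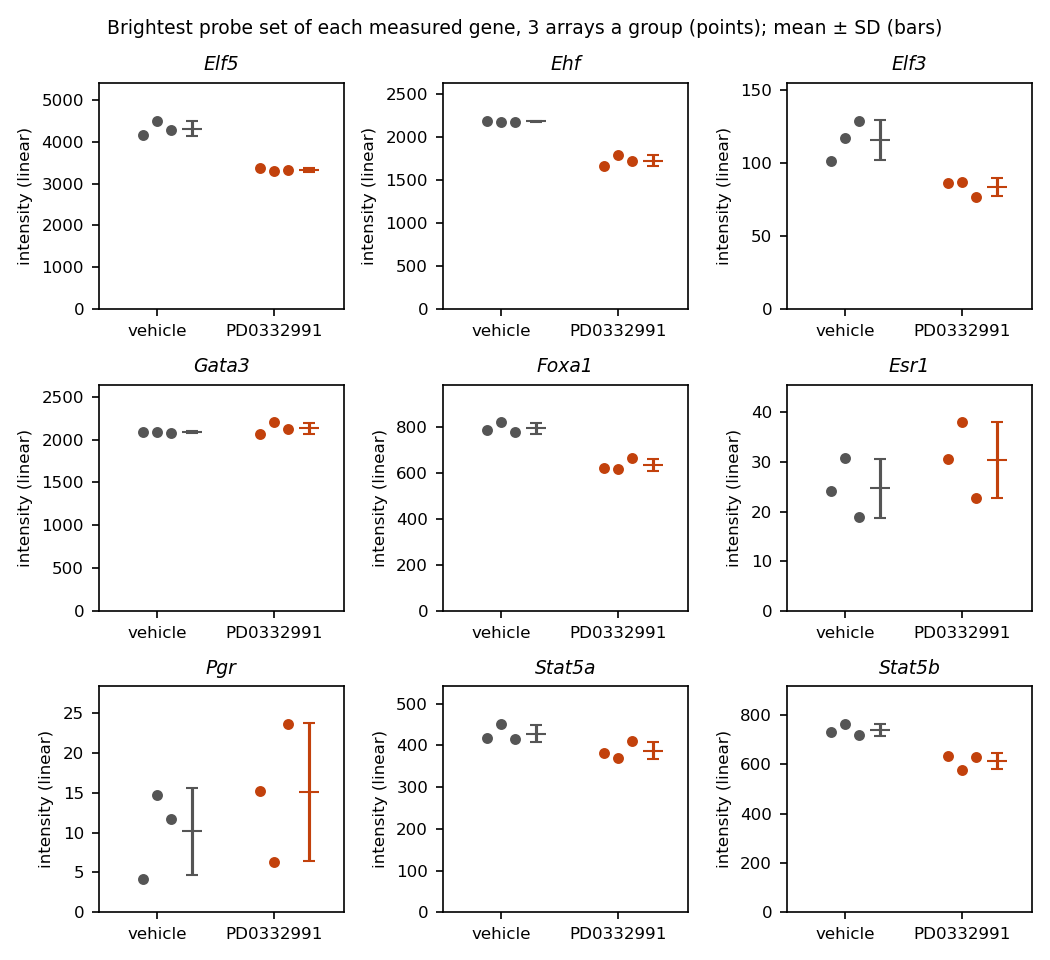
Linear intensity (vertical axis, starting at 0) on the brightest probe set of each of the 9 measured genes, 1 point per array, with the mean and SD of each group of 3 beside the points. The vehicle and PD0332991 points do not overlap for Elf5, Ehf, Elf3, Foxa1, Stat5a and Stat5b, and overlap for Gata3, Esr1 and Pgr.

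The stretches upstream of the genes that fell are shown because these genes were lower on the same arrays, and so that the letters they hold can be compared. They are the 250 bases before an annotated start site, from RefSeq (GRCm38.p6), written 5′ to 3′ on the strand of the gene. The table used held windows for 9 of the 10 genes, 15 windows in all, and none for Ehf. For 4 of the 5 genes called lower it held 6 windows, with 2 start sites each for Elf5 and Stat5b. Capitals mark GGAAG, an extended form of the GGAA core read by ETS factors, on either strand.
Elf5, first start site, chr2:103411848-103412097, plus strand: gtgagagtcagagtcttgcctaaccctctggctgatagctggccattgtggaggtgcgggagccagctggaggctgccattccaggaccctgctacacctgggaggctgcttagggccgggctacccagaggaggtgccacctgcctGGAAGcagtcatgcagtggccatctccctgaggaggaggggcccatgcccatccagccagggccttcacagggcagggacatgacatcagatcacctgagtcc
Elf5, downstream start site, chr2:103423818-103424067, plus strand: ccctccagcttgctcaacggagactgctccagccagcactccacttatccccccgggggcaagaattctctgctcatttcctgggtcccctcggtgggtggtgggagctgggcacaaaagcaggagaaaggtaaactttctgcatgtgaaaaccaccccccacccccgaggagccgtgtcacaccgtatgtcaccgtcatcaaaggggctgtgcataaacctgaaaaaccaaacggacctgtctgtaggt
Elf3, chr1:135258473-135258722, minus strand: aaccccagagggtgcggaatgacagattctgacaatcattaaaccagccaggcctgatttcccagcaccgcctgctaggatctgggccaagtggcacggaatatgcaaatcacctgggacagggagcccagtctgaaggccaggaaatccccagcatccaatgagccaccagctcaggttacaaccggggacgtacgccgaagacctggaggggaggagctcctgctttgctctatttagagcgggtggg
Foxa1, chr12:57546112-57546361, minus strand: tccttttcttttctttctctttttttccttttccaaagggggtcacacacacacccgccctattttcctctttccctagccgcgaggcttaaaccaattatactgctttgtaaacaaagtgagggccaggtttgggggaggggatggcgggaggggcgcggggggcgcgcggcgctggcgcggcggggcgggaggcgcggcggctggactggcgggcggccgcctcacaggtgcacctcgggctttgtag
Stat5b, downstream start site, chr11:100822571-100822820, minus strand: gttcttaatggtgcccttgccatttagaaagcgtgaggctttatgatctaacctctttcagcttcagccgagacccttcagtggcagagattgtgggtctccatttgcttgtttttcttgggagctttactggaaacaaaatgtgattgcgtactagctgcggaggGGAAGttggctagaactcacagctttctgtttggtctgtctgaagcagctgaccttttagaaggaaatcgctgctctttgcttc
Stat5b, upstream start site, chr11:100850582-100850831, minus strand: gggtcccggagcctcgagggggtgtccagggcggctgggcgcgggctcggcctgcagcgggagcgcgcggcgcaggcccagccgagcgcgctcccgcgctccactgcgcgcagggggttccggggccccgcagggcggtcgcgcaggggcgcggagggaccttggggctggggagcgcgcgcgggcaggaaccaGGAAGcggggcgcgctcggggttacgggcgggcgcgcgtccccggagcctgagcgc

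The 2 windows of Stat5b had G+C contents of 46.4% and 82.0%, and those of Elf5 62.8% and 56.8%, where the median over all windows was 52.4%. GGAAG was found in 3 of the 6 windows of the genes that fell and in 64.1% of all 32851 windows. The shorter core GGAA was not counted. The Elf3, Foxa1 and downstream Elf5 windows, which lack GGAAG, do hold GGAA or its complement TTCC. The other motifs, searched on both strands, were the E2F sites TTTCCCGC (0.895% of all windows) and TTTGGCGC (0.417%), the cell cycle element TTTGAA (16%), the STAT site TTCNNNGAA (7.02%) and the GATA site AGATAA (9.99%). None of these 5 occurred in the 6 windows. Over all 15 windows of the 9 genes, TTCNNNGAA occurred in 2, one of Esr1 and one of Prlr, and TTTGAA in 1, of Pgr. A match is a description of letters, and no match says only that these letters are not in the window.

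The 3 ETS factors of the epithelial subgroup were all lower with PD0332991. For Elf5, the alveolar regulator, the intensities were 4154, 4497 and 4264 on the vehicle arrays and 3366, 3289 and 3320 on the PD0332991 arrays. The 3 treated arrays were all below the 3 vehicle arrays, and the treated values were the tighter group. Elf5 was 1.29-fold lower (log2 fold change -0.37, SE 0.05, limma adjusted p = 0.00609). Its dimmer probe set read 152, 152 and 160 with vehicle and 105, 130 and 123 with PD0332991, again without overlap (log2 fold change -0.34, adjusted p = 0.0415).

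Ehf, which is expressed in glandular epithelia, lies near Elf5 on chromosome 2, separated from it in RefSeq by A930006I01Rik and BC016548. Its brightest probe set read 2191, 2177 and 2179 with vehicle and 1663, 1791 and 1721 with PD0332991. The vehicle arrays were nearly level with each other and all above the treated arrays, and Ehf was 1.26-fold lower (log2 fold change -0.34, SE 0.04, adjusted p = 0.00723). A further probe set fell from 1246 ± 30.1 to 1027 ± 58.9 (SD, n = 3 each, limma adjusted p = 0.0282), and another gave 543.5 ± 31.8 and 454 ± 34.0 (SD, n = 3 each) with adjusted p = 0.0792. The fourth, of a type whose probes can match other transcripts, read 3.59 to 17.0 with vehicle and 10.3 to 13.4 with PD0332991, and its groups overlapped. The 3 probe sets above the median signal had log2 fold changes from -0.34 to -0.25, and the mean over all 4 probe sets, -0.19, was not called (limma adjusted p = 0.0567).

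Elf3, an ETS factor of differentiating epithelia, had a far weaker signal on its single probe set. It read 102, 117 and 129 on the vehicle arrays and 86.7, 87.4 and 76.7 on the PD0332991 arrays. The groups did not overlap, but the lowest vehicle array was close to the highest treated ones. Elf3 was 1.32-fold lower (log2 fold change -0.40, SE 0.09, adjusted p = 0.0390), with the widest error of the 5 genes that fell, and leaving out any 1 array other than vehicle replicate 1 ended the call (adjusted p from 0.0873 to 0.111).

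The log2 differences between these relatives were compared between vehicle and PD0332991. Elf5 relative to Ehf changed by -0.03 (exact two-sided permutation test, p = 0.60), Elf5 relative to Elf3 by 0.03 (exact p = 0.80) and Elf3 relative to Ehf by -0.07 (exact p = 0.70). With 3 arrays a group the smallest p of this test is 0.10, and over the 4 contrasts computed, Stat5a and Stat5b included, the adjusted p was 0.40 to 0.80, so these contrasts could not have passed the threshold. Signs turned in some settings, as for Elf3 relative to Ehf (0.05) and Elf5 relative to Elf3 (-0.08) with a pseudocount of 64.

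Foxa1 fell and Gata3 did not pass the test. Foxa1, a forkhead factor that opens chromatin for the oestrogen receptor (chromosome 12), read 786, 821 and 778 with vehicle and 621, 619 and 665 with PD0332991. Each treated array was below every vehicle array, and Foxa1 was 1.25-fold lower (log2 fold change of -0.32 with SE 0.05, adjusted p = 0.0126). The call ended without PD0332991 replicate 2 (adjusted p = 0.0504). Gata3, the zinc finger factor of luminal identity (chromosome 2), read 2093, 2086 and 2072 with vehicle and 2071, 2202 and 2122 with PD0332991. Its groups overlapped, and its log2 fold change was 0.03 with a 95% confidence interval from -0.07 to 0.14 (limma adjusted p = 0.693). That interval leaves out a fall of the size measured for Elf5, Ehf, Elf3, Foxa1 or Stat5b. Its sign turned with spike-in centring (-0.09).

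The 2 steroid receptors gave little signal. The brightest of 3 Esr1 probe sets (chromosome 10) read 24.1, 30.9 and 19.0 with vehicle and 30.6, 38.0 and 22.7 with PD0332991, and the groups overlapped (log2 fold change 0.19, 95% confidence interval -0.20 to 0.57). Another Esr1 probe set gave -0.11. The dimmest read 6.65, 6.86 and 11.4 with vehicle and 11.5, 13.0 and 13.3 with PD0332991, without overlap, though the highest vehicle and lowest treated arrays nearly met (log2 fold change 0.24, adjusted p = 0.131). For Pgr (chromosome 9) the brightest of 3 probe sets read 4.13, 14.7 and 11.7 with vehicle and 15.2, 6.34 and 23.6 with PD0332991. The groups overlapped, and the spread within each was wider than the difference between their means (log2 fold change 0.23, 95% confidence interval -0.39 to 0.85). All 6 probe sets lay in the lower 33.0% of the table's signals. As a gauge, the brightest probe sets of 19 genes of distant tissues, such as Alb of liver and Myh6 of heart muscle, had a median intensity of 24.7, and 5 of the 19 lay above the median signal. No detection call was used here, and a change in these receptors was not detectable with this precision.

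Of the 2 STAT5 genes, which stand side by side on chromosome 11, Stat5b fell on its brightest probe set. It read 729, 764 and 719 with vehicle and 632, 578 and 630 with PD0332991, without overlap (1.2-fold lower, log2 fold change -0.26, SE 0.05, adjusted p = 0.0306). Its dimmer probe set missed the threshold, at 75.5 ± 9.26 with vehicle and 55.5 ± 5.88 with PD0332991 (SD, n = 3 each, log2 fold change -0.35, limma adjusted p = 0.0651). Stat5a showed the reverse arrangement. Its brightest probe set read 418, 452 and 416 with vehicle and 381, 371 and 411 with PD0332991, groups that nearly met (log2 fold change -0.14, adjusted p = 0.194), and its dimmer probe set fell, with 68.7 ± 3.42 for vehicle and 53.5 ± 4.63 for PD0332991 (SD, n = 3 each; log2 fold change -0.29; limma adjusted p = 0.0396). Stat5a relative to Stat5b changed by 0.12 on the log2 scale (exact two-sided permutation test, p = 0.10, the smallest possible, adjusted p = 0.40). The Stat5b call ended without any 1 of the 6 arrays (adjusted p from 0.0665 to 0.0889) and when arrays were centred on their medians (0.0626). The coding sequences of the 2 genes are nearly alike, and whether a probe set of one also reads the other was not tested.

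**Figure D2:**
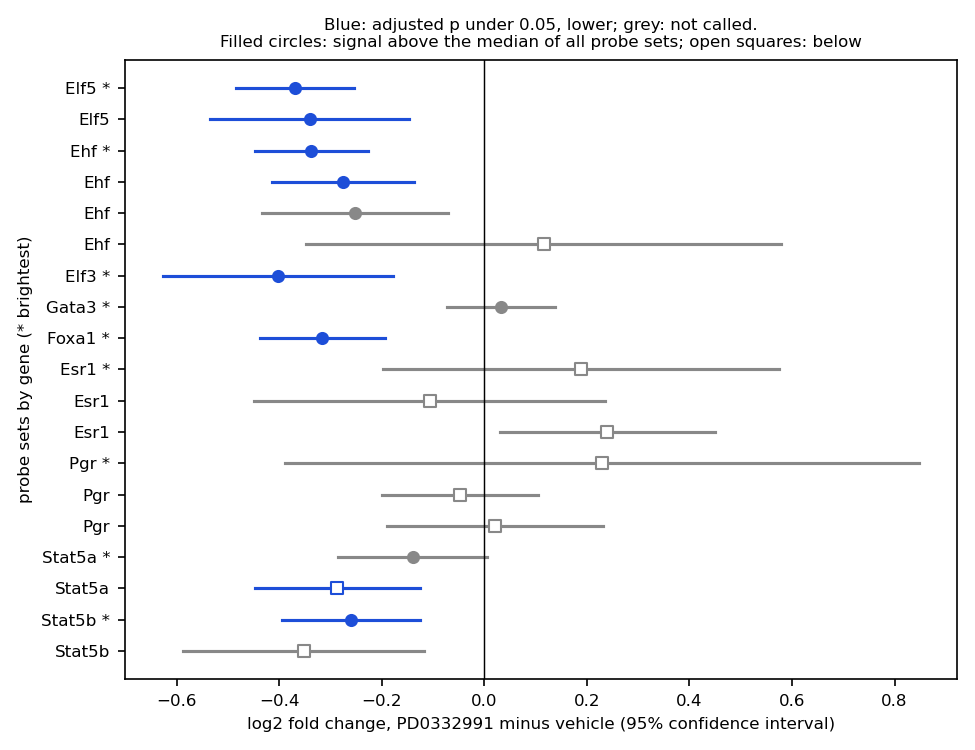
Log2 fold change (horizontal axis) with its 95% confidence interval for all 19 probe sets, grouped by gene, the brightest of each gene marked by an asterisk. The 8 called probe sets, all lower, belong to Elf5, Ehf, Elf3, Foxa1, Stat5a and Stat5b, and the intervals of Gata3, Pgr and all but the dimmest Esr1 probe set include 0.

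Over all 19 probe sets, limma called 8 lower and 0 higher (1 higher at an unadjusted p under 0.05), against 8.19% and 6% of all probe sets, 14.2% in either direction. The groups did not overlap in 12 of the 19, where 34.1% of all probe sets did not overlap. Of the 10 above the median signal, 7 were called lower, against 14% of all such probe sets, and 9 had no overlap, all 9 being lower with PD0332991, against 53.1% of all such probe sets. The probe set of Gata3 was the remaining one. Of the 9 below the median signal, 1 was called, the dimmer one of Stat5a.

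The chromosomal neighbours of the paired genes were read as well. Around Ehf and Elf5, Apip, BC016548, Cat and Abtb2 had log2 fold changes of -0.11, -0.15, 0.09 and 0.09, none of them called (adjusted p from 0.114 to 0.527). Beside the STAT5 genes, Stat3, which encodes the STAT of cytokine responses, had a log2 fold change of 0.02 (adjusted p = 0.875) and Hcrt, a neuropeptide gene, of 0.13 (adjusted p = 0.375). Ghdc was 1.18-fold higher, at 107 ± 8.28 and 129 ± 1.68 (SD, n = 3 each, limma adjusted p = 0.0496).

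**Figure D3:**
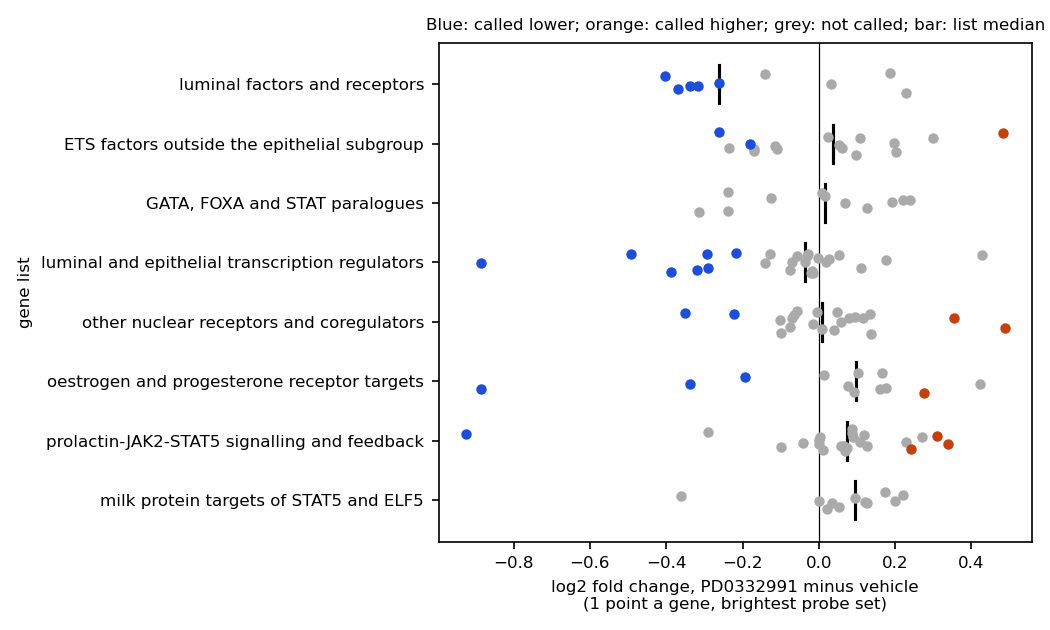
Log2 fold change (horizontal axis) of each measured gene of 8 lists (rows), 1 point per gene on its brightest probe set, with the list median as a bar. The luminal factors and receptors have a median of -0.26, and the other 7 lists have medians from -0.04 to 0.10.

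Other luminal and epithelial transcription regulators were counted next, a list not limited to luminal factors. Of 25 genes, 7 fell and 0 rose in limma (8 lower and 2 higher at an unadjusted p under 0.05), where 9.05% of all genes were called lower and 7.8% higher, or 14.3% and 11.6% of those above the median signal, as 21 of the 25 were. The list median was -0.04, beside 0.00 over all genes. Myb, a proto-oncogene transcription factor also listed as an oestrogen target, read 433.3 ± 31.9 with vehicle and fell to 227 ± 8.57 with PD0332991 (SD, n = 3 each; log2 fold change -0.88; limma adjusted p = 0.000959), and its other 2 probe sets gave -0.73 and -0.80. Hey1, a target of Notch, fell from 2874 ± 79.6 to 2195 ± 107 (SD, n = 3 each, limma adjusted p = 0.00801). The other 5 were the receptors Notch1 and Notch3, the grainyhead factor Grhl1, Id2 and Cited1, named here because the count is small and chosen after their values were seen. The other 18 did not pass the test. The number that fell was 4 or 5 when any 1 array was left out.

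Among ETS factors outside the epithelial subgroup, 1 of 16 rose and 2 fell, near the shares of all genes (7.8% and 9.05%), and the list median was 0.04. Elk3, a ternary complex factor, read 966.1 ± 34.4 with vehicle and rose to 1357 ± 24.1 (SD, n = 3 each; log2 fold change 0.48; limma adjusted p = 0.00232), and of its 3 dimmer probe sets 2 were called higher too. With spike-in centring its call ended (adjusted p = 0.0817). The falls were those of Etv6 (log2 fold change -0.26, adjusted p = 0.0316) and Elf2 (-0.18, adjusted p = 0.0301), and Etv6 was called on both of its probe sets. Centred on the array median, neither Etv6 nor Elf2 was called, and the count that fell was 0 or 1 without any 1 array (1 only without vehicle replicate 1).

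Of 11 close relatives of the GATA, FOXA and STAT members, 0 rose and 0 fell in limma, where 7.8% of all genes were called higher and 9.05% lower. At an unadjusted p under 0.05, 1 was higher and 0 lower. That was Stat2, a partner of interferon signalling (74.1 ± 8.18 and 88.7 ± 1.40, SD, n = 3 each, limma adjusted p = 0.116), whose other probe set rose (log2 fold change 0.46, adjusted p = 0.0118). Gata5 had a log2 fold change of -0.24 (adjusted p = 0.189). Only 4 of the 11 lay above the median signal.

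Of 21 other nuclear receptors and coregulators, 2 rose, 2 fell and 17 were not called, shares near those of all genes (7.8% higher and 9.05% lower), with a median of 0.01. The orphan receptors Nr2f1 and Nr2f2 went opposite ways. Nr2f1 rose from 301.8 ± 14.4 to 430.1 ± 28.1 and Nr2f2 fell from 524.8 ± 18.7 to 408.2 ± 16.6 (SD, n = 3 each, limma adjusted p = 0.00727 and 0.0103). Rarb, a retinoic acid receptor, rose (log2 fold change 0.35, adjusted p = 0.00823), and Rxra, the shared partner of such receptors, fell (-0.22, adjusted p = 0.0197). The dimmer probe sets of Rxra gave 0.12 and 0.01, and with the mean of its probe sets its value was -0.03. For Nr2f2, 1 of its 5 dimmer probe sets gave 0.18, and the mean of its probe sets, -0.11, was not called. The Rxra call also ended without any 1 array (adjusted p from 0.0502 to 0.0674). With spike-in centring neither gene that rose was called, Nr2f1 at 0.36 (adjusted p = 0.0842) and Rarb at 0.23 (adjusted p = 0.278).

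Targets of the steroid receptors gave 1 higher and 3 lower of 12 genes (5 higher and 3 lower at an unadjusted p under 0.05), beside 7.8% and 9.05% of all genes, with a median of 0.10. Cyclin D1 (Ccnd1) read 7742 ± 180 with vehicle and rose to 9385 ± 172 with PD0332991 (SD, n = 3 each, log2 fold change 0.28, limma adjusted p = 0.0114). Its dimmer probe sets were also called higher, at 0.44 and 0.58 (limma adjusted p = 0.00324 and 0.00172). With spike-in centring the brightest probe set gave 0.15 and was not called (adjusted p = 0.465). Besides Myb, Greb1 was called lower at a low signal, 47.9 ± 0.57 and 39.9 ± 2.24 (SD, n = 3 each, limma adjusted p = 0.0460), and its next probe set gave 0.03. Fkbp5, an immunophilin that steroid receptors induce, was the remaining lower gene, named after its value was seen. Without any 1 array the count of lower genes was 1.

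Genes of prolactin, JAK2 and STAT5 signalling gave 3 higher and 1 lower of 23, near or below the shares of all genes above the median signal (11.6% and 14.3%), with a median of 0.07. Pim1, a survival kinase that STAT5 induces, read 407.1 ± 17.2 with vehicle and fell to 206.6 ± 4.80 with PD0332991 (SD, n = 3 each; log2 fold change -0.93; limma adjusted p = 0.000235), and its dimmer probe set gave -0.11. Bcl2l1, another survival gene downstream of STAT5, rose from 1550 ± 22.3 to 1965 ± 32, and Ghr, the growth hormone receptor, from 1137 ± 26.2 to 1414 ± 59.5 (SD, n = 3 each, limma adjusted p = 0.00479 and 0.0131). The dimmer probe sets of Bcl2l1 gave 0.27, 0.06 and -0.01, and the mean of its probe sets, 0.16, was not called (adjusted p = 0.0798). The Ghr call ended without vehicle replicate 1 (adjusted p = 0.0511). The phosphatase gene Ptpn1, named after its value was seen, was the other higher gene. The feedback inhibitor genes Cish and Socs2, also chosen after their values were seen, did not pass the test. Cish read 213 ± 10.8 and 232.9 ± 16 and Socs2 4871 ± 282 and 5709 ± 287 (SD, n = 3 each, limma adjusted p = 0.316 and 0.0712). After spike-in centring 0 of the 23 were called higher and 2 lower. That setting moved the median of all probe sets from -0.01 to -0.13. It also cut the higher calls among all probe sets from 2701 to 379, so the loss of higher calls was not particular to this list. Of all probe sets 6.66% were then called lower, beside 8.19% as reported.

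The milk protein genes listed as targets of STAT5 and ELF5 had no call among 11 in limma (2 higher and 1 lower at an unadjusted p under 0.05). Over all genes 9.05% were called lower and 7.8% higher, and only 4 of these 11 lay above the median signal. Csn3, which encodes kappa-casein, read 11609 ± 436 and 13079 ± 125 (SD, n = 3 each, log2 fold change 0.17, limma adjusted p = 0.0604). Its dimmer probe set was not called either, at 696.4 ± 61.7 and 1012 ± 169 without overlap (SD, n = 3 each, log2 fold change 0.52, limma adjusted p = 0.0615). Csn1s2a had a log2 fold change of -0.36 at a low signal of 34.3 ± 6.51 and 23.1 ± 3.60 (SD, n = 3 each, limma adjusted p = 0.0991), and its 4 dimmer probe sets gave 0.35, 0.29, 0.10 and -0.14. The genes Csn2, Wap and Lalba, chosen after their values were seen, had intensities of 48.9, 18.7 and 2.14 with vehicle, below the median signal. Centred on the array median, 1 of the 11 was called higher.

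By pattern over the 6 arrays, the genes most like Elf5, the member with the smallest p, were Brpf1 (Pearson r = 0.9997), Stag1 (0.9989) and Snrpe (0.9988), out of 10776 genes above the median signal. These correlations mostly restate the gap between the groups, carry no test, and say nothing of shared control.

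Markers of the labelled tissue were bright, 10 of 11 epithelial markers lying above the median signal, with Epcam at 9635 ± 166 and Krt8 at 9981 ± 105 with vehicle (SD, n = 3 each). Krt19 was the one below it, with an intensity of 1 on each vehicle array. Among the 11 epithelial markers 2 rose and 1 fell, where 11.6% of all genes above the median signal were called higher and 14.3% lower. Their summed intensity was 62433 to 64273 with vehicle and 65189 to 67213 with PD0332991. Of 11 basal and myoepithelial markers 5 lay above the median signal, and 1 rose and 0 fell, beside 7.8% and 9.05% of all genes. Their summed intensity was 6298 to 6564 with vehicle and 7272 to 7698 with PD0332991. The one that rose was Mme (5059 ± 192 and 6013 ± 260, SD, n = 3 each, limma adjusted p = 0.0349). Mme alone made up most of the summed intensity in both groups, so that sum says little of the other basal markers. The median intensity of the list was 43.9, and Krt5, Krt14 and Trp63 were below the median signal. Of 13 leukocyte markers 2 rose and 0 fell (6 higher and 0 lower at an unadjusted p under 0.05), where 7.8% of all genes were called higher and 9.05% lower. Above the median signal lay 5 of the 13, the brightest with a mean intensity of 1822. Their summed intensity was 2397 to 2481 with vehicle and 2698 to 2813 with PD0332991. The pan-leukocyte gene Ptprc read 11.6 ± 1.67 and 18.2 ± 1.02 (SD, n = 3 each). Of 10 fibroblast and 10 endothelial markers 1 each fell, where 9.05% of all genes were called lower, and of 8 adipocyte markers none was called. The part of these markers in the results was not tested. The arrays had median intensities of 71.3 to 72.7 with vehicle and 69.6 to 71.1 with PD0332991, without overlap. Centred on the array medians, 6.46% of all probe sets were called lower, beside 8.19% as reported, and 4 of the 9 genes were. Of all calls 51.5% were then higher, beside 42.3% as reported. Correlations across probe sets were 0.9958 to 0.9964 within groups and 0.9913 to 0.9920 between them. The ratio of the 3′ to the 5′ control probe set of Gapdh was 0.927 to 0.990 with vehicle and 0.980 to 1.01 with PD0332991. Vehicle replicate 1 had the lowest mean of the hybridization spike-ins (9.74 on the log2 scale, beside 9.94 to 10.05). Centring on these spike-ins moved the median of all probe sets from -0.01 to -0.13 and every gene's value with it. In that setting 4 of the 9 genes were called lower, beside 6.66% of all probe sets, and 11.2% of all calls were higher.

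**Figure D4:**
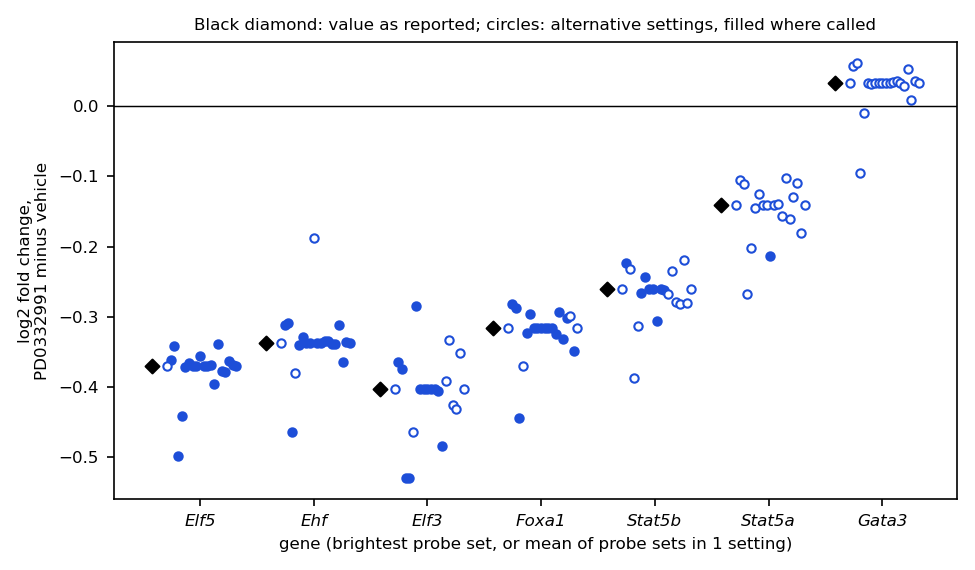
Log2 fold change (vertical axis) of the 7 genes with signal above the median, with the reported value as a black diamond and each alternative setting as a circle, filled where the gene was called. The values of Elf5, Ehf, Elf3, Foxa1, Stat5b and Stat5a stay below 0 in every setting tried, and those of Gata3 lie on both sides of it.

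Calls and sizes were followed over the alternative settings. Elf5 was called in 19 of 20, with log2 fold changes from -0.50 to -0.34, Ehf in 17 of 20, from -0.46 to -0.19, and Foxa1 in 16 of 20, from -0.44 to -0.28. Elf3 was called in 12 of 20 and Stat5b in 8 of 19, both negative throughout. Stat5a was called in 1 of 19, with the mean of its probe sets, and Gata3, Esr1 and Pgr in none.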

How the data were processed

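The authors deposited 1 table of linear probe-set intensity values, with 1 column per array. Biotin labelling followed the Affymetrix standard, per the labels' protocols, and the summarisation method was not given in the sources used here. Any scaling between arrays by the authors would hide a shift of the whole transcriptome. The 64 control probe sets were left out. The other 45037 were transformed to log2(intensity + 16), so that fold changes of dim genes are understated, and compared with lmFit and eBayes of limma 3.58.1 (R 4.3.3), by two-sided tests adjusted over all of them after Benjamini and Hochberg, and a threshold of 0.05 for a call. The limma fit had no replicate block and no filter. The procedure was tested on simulated data. A gene is represented by its brightest probe set, chosen by mean log2 value, and 34945 probe sets with 1 symbol named 18193 genes (platform annotation, whose symbols can be old). Intensities of different probe sets are not comparable as transcript levels. Signal above or below the median says only where a probe set ranked among all probe sets that are not controls. No background level of the arrays was estimated. Nothing in the sample labels ties the 3 samples of a group to separate experiments beyond the series' own statement of biological triplicates, and their number limits the precision.

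The samples were grouped by their titles. The genes and lists were chosen with earlier results of these data known. Named were all 10 genes with all probe sets, up to 2 called genes in each direction per list by smallest p (or, in a list with no call, its 2 smallest p), the 3 genes most like the called member with the smallest p, and the 2 neighbours on either side of the Elf5, Ehf and STAT5 genes. Other list genes and markers named in the text lie outside this rule and were chosen after their values were seen. Tables were joined with Python 3.11.15 and pandas 2.3.3, and plots drawn with matplotlib 3.10.9. Alternatives tried were centring on array medians or on 9 spike-in probe sets, quantile normalization, a replicate block, pseudocounts of 1 and 64, a filter on dim probe sets, 1 probe set or the mean per gene, leaving out probe sets that can match several transcripts, array weights, limma's trend and robust options, leaving out each array, and a threshold of 0.01.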

Additional observations from a re-analysis of the deposited data

How the results depend on the processing

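The number of arrays limits all calls. With all 6 arrays 6391 probe sets (42.3% higher), 5 genes and 8 probe sets of the luminal set and 21 genes of the 7 lists were called. The sample labels do not say whether same-numbered arrays were pairs. The correlation of deviations of same-numbered arrays was 0.005, -0.05 and 0.04, and not every array correlated best with its own number. These correlations carry no test and do not settle whether the samples were paired. With the replicate block the counts were 2305, 0, 0 and 7, with 6 of the 9 genes at an unadjusted p under 0.05. Leaving out 1 array gave 3439 to 3753 probe sets, 2 to 4 genes, 3 or 4 probe sets of the set, and 12 to 15 list genes. Spike-in centring gave 3379 probe sets (379 higher, 3000 lower) and 9 list genes, and, also without vehicle replicate 1, 2185 probe sets, 2 genes, 2 probe sets of the set and 8 list genes. At a threshold of 0.01 the counts were 2340, 2, 2 and 8. Probe sets of the set called lower were 5 with a pseudocount of 1, with 1 probe set a gene (3820 calls in all) and without probe sets that can match several transcripts (4127). Averaging probe sets within genes gave 3031 calls. Trend and robust settings gave 9693 calls and 34 list genes, and the filter on dim probe sets 32 list genes. The cause of these shifts was not tested, except that fewer features or arrays enter some fits. Greb1 reversed to 0.034 without probe sets that can match several transcripts, being then read on another probe set. The 4 contrasts of relatives could not reach the threshold in any setting. Stat5a relative to Stat5b was positive in all 12 run, and each of the other 3 turned sign in at least 1.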
